A study of Mus musculus with 6 samples.

Results

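The 10 genes described here belong to MHC antigen presentation and T cell costimulation and were chosen by name. They are H2-D1, H2-K1, B2m and Tap1 of the class I route, H2-Aa, H2-Ab1, H2-Eb1 and Cd74 of the class II route, and the costimulatory ligands Cd80 and Cd86. All 10 had a row, matched from Ensembl identifier to symbol, among the 31053 genes of the count table. RNA from the cerebellum of 2 WT and 3 KIKO mouse libraries was sequenced in bulk. KIKO (knock-in knock-out) mice are the disease model of the study, and the WT mice were described as C57BL/6 littermates. The study describes CD45+/CD11b+ cells, a microglia and macrophage gate, taken by magnetic sorting from 6-month-old animals, with 4 mice per group, whereas the labels give the cerebellum and the genotype, with no sorting or age, and name an RNA kit for lipid tissue. The tables also hold columns named for KIKO with butyrate, which the study gave both in the diet and in culture, and the labels do not settle to which experiment the WT and KIKO libraries belong. A WT library numbered 3 was not analysed here. The study measured MHC-II and CD86 protein on gated microglia by flow cytometry and reported both as higher in KIKO than in WT. The question here was whether the RNA of these genes differed between the genotypes. Bulk RNA is a different measure from protein on gated cells.

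MHC class I presents peptides from inside the cell to CD8+ T cells. Its heavy chains, H2-K1 and H2-D1, pair with the light chain B2m and receive peptides pumped into the endoplasmic reticulum by the TAP transporter, of which Tap1 is a subunit. MHC class II presents peptides taken up from outside to CD4+ T cells. H2-Aa and H2-Ab1 encode the alpha and beta chains of I-A, H2-Eb1 encodes the beta chain of I-E, and Cd74, the invariant chain, escorts class II through the cell and blocks its groove until a peptide is loaded. C57BL/6 mice lack a working I-E alpha chain, so that the H2-Eb1 product is not brought to their cell surface as I-E. CD80 and CD86 bind CD28 on T cells and give the second signal for activation. Resting microglia are known for low class II, and border-associated macrophages, dendritic cells and B cells for more.

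Class I and class II genes are known to share a promoter module, in which an X2 box bound by CREB-family factors, searched here as TGANG, lies a fixed distance before a Y box, ATTGG on the coding strand, bound by NF-Y. The coactivators NLRC5 (class I) and CIITA (class II) act through it. RefSeq promoters on GRCm38.p6, 250 bases before to 50 bases after the gene start, were at hand for 7 of the 10 members. Those of H2-Ab1, Cd74 and Cd86 were not analysed here. The search for TGANG followed by ATTGG, with their first bases 24 to 26 bases apart on either strand, used a spacing chosen after the sequences were seen. It found the module in 5 of these 7 members, H2-D1, H2-K1, B2m, H2-Aa and H2-Eb1, and in 311 of 32851 promoters of all genes (0.947%). TGANG alone was in 89.4% of promoters and ATTGG alone in 37.4%. The windows are printed to show the arrangement that these class I and class II genes have in common, with the motifs in capitals, 5′ to 3′ on the gene's own strand.
H2-D1, chr17:35262915-35263037, plus strand: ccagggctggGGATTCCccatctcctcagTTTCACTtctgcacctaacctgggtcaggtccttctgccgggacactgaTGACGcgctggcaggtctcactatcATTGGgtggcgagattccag
H2-K1, chr17:34000348-34000466, minus strand: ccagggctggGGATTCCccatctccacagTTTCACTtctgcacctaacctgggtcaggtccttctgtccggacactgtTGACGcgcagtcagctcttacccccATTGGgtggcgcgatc
B2m, chr2:122147599-122147653, plus strand: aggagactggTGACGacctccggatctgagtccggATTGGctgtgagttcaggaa
H2-Aa, chr17:34287852-34287907, minus strand: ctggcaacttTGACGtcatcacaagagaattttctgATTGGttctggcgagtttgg
H2-Eb1, chr17:34305774-34305827, plus strand: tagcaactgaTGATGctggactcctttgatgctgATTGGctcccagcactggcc
In the H2-D1 and H2-K1 windows the capitals before the module mark GGATTCC, the middle of a palindrome of the NF-kB type, and TTTCACT, part of a stretch that resembles an interferon-stimulated response element. On either strand, the first stood in 3.79% of the 32851 promoters and the second in 4.32%. The promoters of Tap1 and Cd80 held no match to the module. A match to these letters is a description of the sequence and no evidence of binding in these cells.

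The libraries held between 1013107 and 1351339 counts, and a signal of 3 counts corresponded to between 2.275 and 3.044 normalized CPM, which covers counting error only. Normalized CPM (CPM, counts scaled to a library of fixed size) were also scaled for library composition by TMM. KIKO replicate 2 stood apart from the other 4 libraries. Its log2 CPM over the genes tested had a Pearson's r of 0.672 to 0.747 with theirs, against 0.884 to 0.931 among the 4. The summed level of 12 microglia markers was 12230 normalized CPM in KIKO replicate 2 and 4746 to 6840 in the others, and that of 6 oligodendrocyte markers was 18860 against 4540 to 11840. The microglia markers were all detected, but markers of neurons, oligodendrocytes and choroid plexus epithelium were detected as well, the last at 6667 to 14220 normalized CPM in sum, so the libraries held RNA of cells outside the CD45+/CD11b+ gate. In such bulk RNA, fewer cells of a type and less RNA per cell cannot be told apart. Results are given with and without KIKO replicate 2.

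No member differed between KIKO and WT by the thresholds that the study set, which ask for an unadjusted p under 0.05 and a log2 fold change of more than 0.75 either way. Of the 10 members, 9 passed the filter on low counts, and 0 of these 9 passed the thresholds, against 1.2% of the 10889 genes tested (131 genes, 0.716% higher and 0.487% lower in KIKO). By edgeR's quasi-likelihood test the adjusted p of each of the 9 was 1, and across all genes 0 passed an adjusted p of 0.05, with 131 at an unadjusted p under 0.05. By DESeq2, 136 genes passed the thresholds, 0 of them members, and 0 genes passed the adjusted p. In KIKO 4 of the 9 were higher and 5 lower, with a median log2 fold change of −0.06 beside 0.02 over all genes tested. The groups did not overlap for 1 of the 9, H2-Ab1, against 16.7% of all genes tested. Since nothing in the labels says that the libraries came from separate animals, the p-values measure the spread between these libraries.

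**Figure D1:**
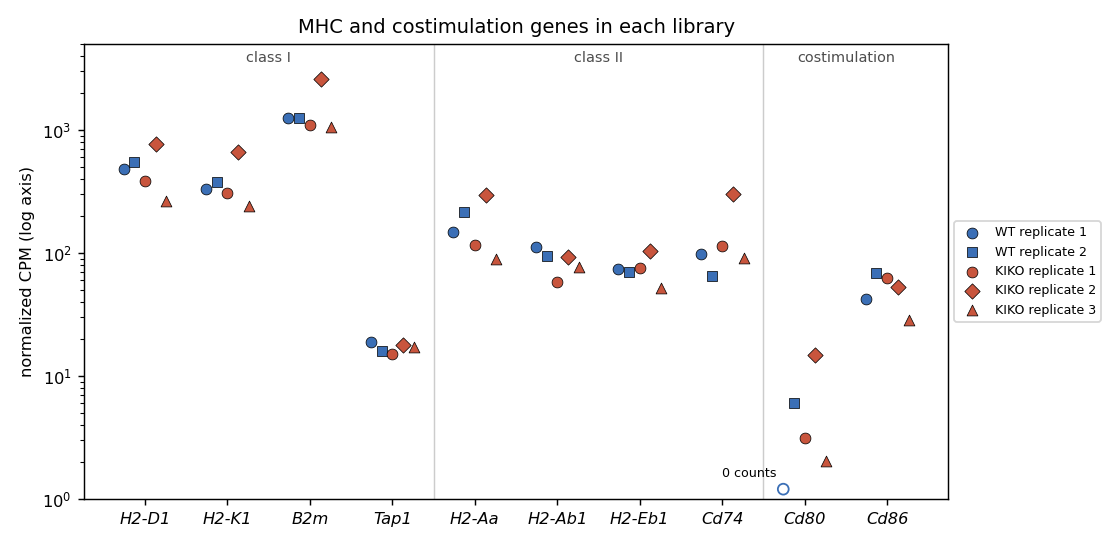
Normalized CPM of the 10 genes in each of the 5 libraries, on a log axis, with WT and KIKO libraries as separate points. KIKO replicate 2 was the highest of the 5 libraries for H2-D1, H2-K1, B2m, H2-Aa, H2-Eb1, Cd74 and Cd80, and H2-Ab1 was the member whose 3 KIKO values all lay below both WT values.

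B2m, the light chain, had the highest level of the 10 genes. B2m (ENSMUSG00000060802, chromosome 2, 122147686 to 122153083) was at 1242 and 1261 normalized CPM in WT replicates 1 and 2 and at 1087, 2595 and 1060 in KIKO replicates 1, 2 and 3. The WT libraries were thus almost equal, while KIKO replicate 2 lay far above them and the other KIKO libraries under them. WT averaged 1251 ± 13.02 (SD, n = 2) and KIKO 1581 ± 878.4 (SD, n = 3), a log2 fold change of 0.34 (SE 0.52, 95% interval −0.85 to 1.52).

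The heavy chain H2-K1 (ENSMUSG00000061232, chromosome 17, 33996017 to 34000347) was at 328.7 and 378.5 normalized CPM in the WT libraries and at 309.9, 658.4 and 240.5 in the KIKO libraries. H2-K1 therefore had its highest and its lowest value in KIKO, and its log2 fold change was 0.19 (SE 0.49, 95% interval −0.94 to 1.31). The heavy chain H2-D1 (ENSMUSG00000073411, chromosome 17, 35262730 to 35267499) was at 479.1 and 546.9 normalized CPM in WT and at 383.3, 771.2 and 262.8 in KIKO. Its groups also overlapped, through KIKO replicate 2 alone, with a log2 fold change of −0.12 (SE 0.50, 95% interval −1.26 to 1.02). Heavy chain genes are near copies of one another. Of the 75-base windows of their transcripts, 5.06% for H2-D1 and 3.10% for H2-K1 also occurred in other genes, the most in H2-Q1 and H2-Q10, and the counting of reads with several matches is not given in the sources used here, so both counts are uncertain by reads of this kind.

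Tap1 (ENSMUSG00000037321, chromosome 17, 34187553 to 34197225), the transporter subunit, had 17 to 23 counts in every library. This came to 18.9 and 15.9 normalized CPM in WT and to 14.98, 17.8 and 17.3 in KIKO, and Tap1 was near the same level in KIKO replicate 2 as elsewhere (1.06 times the mean of the other 4 libraries). Its log2 fold change was −0.06 (SE 0.56), with a 95% interval from −1.34 to 1.22 that leaves room for more than a doubling in either direction. Tap1 shares 212 exonic bases with Psmb9 on the opposite strand, and the strand setting of the counting is not given in the sources used here.

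Among the class II genes, Cd74, the invariant chain (ENSMUSG00000024610, chromosome 18, 60803848 to 60812652), had the largest fold change of the 9 members tested. It was at 97.6 and 65.2 normalized CPM in WT and at 114.4, 301.4 and 91.3 in KIKO. The value of KIKO replicate 2 was 3.27 times the mean of the other 4 libraries, and KIKO replicate 3 lay below WT replicate 1. WT averaged 81.4 ± 22.9 (SD, n = 2) and KIKO 169.0 ± 115.2 (SD, n = 3). The log2 fold change of 1.06 (SE 0.57, 95% interval −0.25 to 2.37) did not pass the test (edgeR, adjusted p = 1). Without KIKO replicate 2, the log2 fold change of Cd74 was 0.34 (SE 0.30, 95% interval −0.28 to 0.97), with a KIKO mean of 102.8 normalized CPM. Without KIKO replicate 3 it was 1.35 and passed the thresholds, though not after adjustment (edgeR, adjusted p = 1).

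H2-Aa (ENSMUSG00000036594, chromosome 17, 34282744 to 34287823), the I-A alpha chain, was at 148.4 and 215.4 normalized CPM in WT and at 116.7, 294.4 and 89.3 in KIKO. Again KIKO replicate 2 was the highest library and the other KIKO libraries were the lowest, and the log2 fold change was −0.12 (SE 0.54, 95% interval −1.36 to 1.12). H2-Ab1 (ENSMUSG00000073421, chromosome 17, 34257689 to 34269419), the I-A beta chain, behaved differently in that library. It was at 112.6 and 94.1 normalized CPM in WT and at 57.6, 93.5 and 77.1 in KIKO, so that all 3 KIKO values lay below both WT values, by a margin of less than 1 CPM for KIKO replicate 2. Of all genes tested, 8.51% had all KIKO below all WT. The log2 fold change of H2-Ab1 was −0.44 (SE 0.38, 95% interval −1.30 to 0.42), which did not pass the test. H2-Eb1 (ENSMUSG00000060586, chromosome 17, 34305867 to 34316674), the I-E beta chain, was at 74.7 and 70.5 normalized CPM in WT and at 74.9, 104.3 and 51.8 in KIKO, with a log2 fold change of 0.09 (SE 0.41, 95% interval −0.86 to 1.04). The gene of the I-E alpha chain was not analysed here.

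Of the costimulatory ligands, Cd86 (ENSMUSG00000022901, chromosome 16, 36603869 to 36666081) was at 41.8 and 68.3 normalized CPM in WT and at 62.3, 52.6 and 28.4 in KIKO. The WT replicates thus spanned most of the range of the KIKO libraries, KIKO replicate 2 lay in the middle, and the log2 fold change was −0.20 (SE 0.48, 95% interval −1.30 to 0.89). Cd80 (ENSMUSG00000075122, chromosome 16, 38455561 to 38496335) had 0 and 8 counts in WT and 4, 19 and 2 counts in KIKO. It failed the filter on low counts and was not tested. A difference in Cd80 was not detectable at this depth, with WT replicate 1 and KIKO replicate 3 at or under the limit of 3 counts.

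Per base of exon the members spanned a wide range of levels. B2m stood first at 1685 normalized CPM per kilobase of exon, averaged over the 5 libraries, and its lowest library (1233) lay above the highest of the next gene. H2-D1 (189.5), H2-K1 (130.4), Cd74 (79.8), H2-Aa (45.5), H2-Eb1 (38.7) and H2-Ab1 (33.9) followed on the same scale, and each of these neighbours overlapped the next over the libraries. Cd86 (13.8 normalized CPM per kilobase) lay below H2-Ab1 in every pairing of libraries, since its highest value was 18.7 and the lowest of H2-Ab1 was 22.4. Tap1 (3.10) and Cd80 (1.40) came last and overlapped. The labels name a stranded Illumina kit and the paper a digital mRNA-seq kit, and for the latter, which reads one end of the transcript, a length scaling is not apt. Without it, H2-Aa moved ahead of Cd74 and H2-Ab1 ahead of H2-Eb1, and the other 6 genes kept their places.

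KIKO replicate 2 was the highest of the 5 libraries for 6 of the 9 members tested (66.7%), against 33.9% of all genes tested, a share given without a test. Its normalized CPM over the mean of the other 4 libraries was 1.85 for H2-D1, 2.09 for H2-K1, 2.23 for B2m, 2.07 for H2-Aa, 1.53 for H2-Eb1 and 3.27 for Cd74. For Tap1, H2-Ab1 and Cd86 it was between 1.05 and 1.10. The microglia markers were also highest in that library, and the members were therefore set against them. Per 1000 counts of the 12 microglia markers, the class I genes together had 384.4 and 321.9 counts in WT and 378.2, 330.5 and 284.2 in KIKO, and the 4 class II genes had 80.5 and 65.1 in WT and 76.6, 64.9 and 55.6 in KIKO. On this scale KIKO replicate 2 lay within the range of the other libraries for both class sums. Among single members it was the lowest library for Tap1, H2-Ab1, H2-Eb1 and Cd86 and the highest for Cd74 and Cd80. For 8 of the 9 members the groups overlapped on this scale. The exception was H2-Aa, with 27.6 and 31.5 counts per 1000 microglia marker counts in WT and 24.6, 24.1 and 16.1 in KIKO, and 6.55% of all genes tested also had all KIKO below all WT. When the libraries were scaled to the microglia markers in the fit, 2 of the 9 members were higher and 7 lower in KIKO, 0 passed the thresholds against 0.432% of all genes, and the median log2 fold change was −0.20 beside −0.07 over all genes. With that scaling H2-K1 and H2-Eb1 were below 0, at −0.10 and −0.11, and Cd74 was at 0.65, without passing the thresholds.

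**Figure D2:**
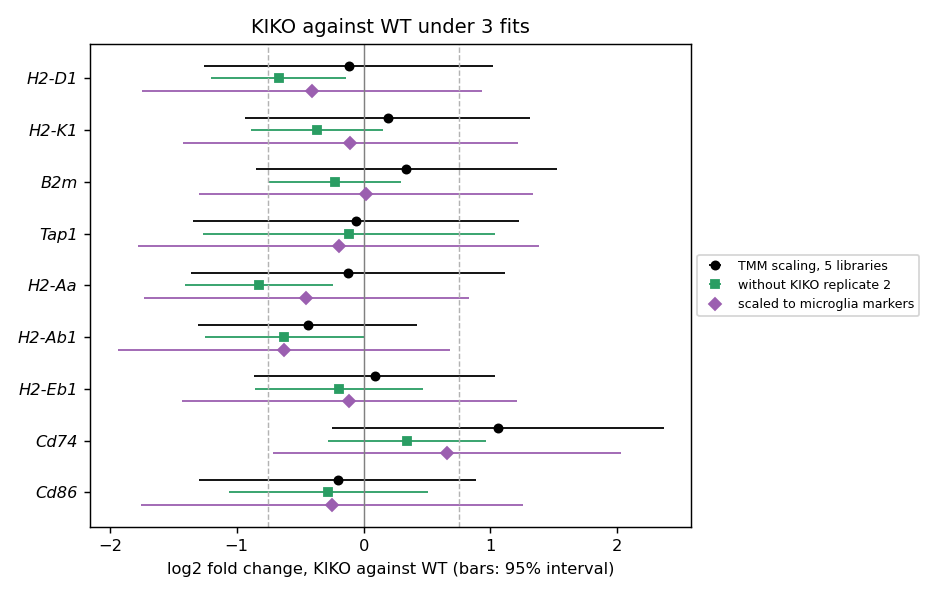
Log2 fold change of KIKO against WT with its 95% interval for the 9 members tested, with all 5 libraries, without KIKO replicate 2, and with scaling to the microglia markers, with dashed lines at the size threshold of 0.75 either way. The interval of each member spans 0 with all 5 libraries, and without KIKO replicate 2 those of H2-D1 and H2-Aa lie below 0.

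Without KIKO replicate 2, 8 of the 9 members were lower in KIKO and Cd74 alone was higher. The median log2 fold change of the 9 was −0.28, beside −0.01 over all genes. In this fit of 2 against 2 libraries H2-Aa passed the thresholds, with a log2 fold change of −0.82 (SE 0.28, 95% interval −1.41 to −0.24), but did not pass after adjustment (edgeR, adjusted p = 0.421). It was the 1 member past the thresholds, where 6.45% of 10373 genes passed, 3.51% as lower, and 0.0482% passed an adjusted p of 0.05. H2-D1 had a log2 fold change of −0.67 (SE 0.26; edgeR, adjusted p = 0.502), under the threshold for size. H2-Ab1 was at −0.62 (SE 0.31; edgeR, adjusted p = 0.611). H2-K1, B2m and H2-Eb1, which were above 0 with all libraries, were at −0.37, −0.23 and −0.19 without KIKO replicate 2, so their direction rested on that library. Over the 15 alternative settings, Cd74 was higher in KIKO in 15 and H2-Ab1 lower in 15. These settings refit all or most of the same libraries, so they are not independent of one another. With all libraries the 95% intervals of both genes spanned 0, and the share of all genes that kept their direction is not given.

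Ratios between members of a class within a library depend on neither the scaling nor the amount of microglial RNA, as far as the members of a pair come from the same cells. Of the 9 ratios computed, among H2-D1, H2-K1 and B2m and among the 4 class II genes, the groups did not overlap for 5. This count takes in either direction, so the shares of all genes are given for both. H2-D1 counts over H2-K1 counts were 1.46 and 1.45 in WT and 1.24, 1.17 and 1.09 in KIKO. Both WT ratios thus lay above all 3 KIKO ratios, and KIKO replicate 2 took its place among the KIKO libraries. The exact binomial 95% intervals, for counting error only, ran from 1.287 to 1.623 in WT replicate 2 and from 1.068 to 1.285 in KIKO replicate 2, the libraries with the most counts of both genes. The intervals of every other pairing of a WT with a KIKO library overlapped. Of all genes tested, 4.69% had counts over those of H2-K1 that were lower in every KIKO library than in both WT libraries. A further 5.43% were higher in every KIKO library. H2-D1 over B2m was 0.386 and 0.434 in WT and 0.353, 0.297 and 0.248 in KIKO. Over B2m, 7.93% of genes were lower in the same way and 3.56% higher.

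The ratios of Cd74 to the class II chains were higher in the 3 KIKO libraries than in both WT libraries. Cd74 counts over H2-Aa counts were 0.658 and 0.303 in WT and 0.980, 1.02 and 1.02 in KIKO. All 3 KIKO ratios lay above both WT ratios, as 11.4% of genes did over H2-Aa, while 0.955% lay below. The exact binomial 95% interval was 0.504 to 0.854 in WT replicate 1 and 0.754 to 1.39 in KIKO replicate 3, so the intervals of these libraries overlapped. That of KIKO replicate 1, 0.774 to 1.24, overlapped WT replicate 1 as well. Cd74 over H2-Eb1 was 1.31 and 0.925 in WT and 1.53, 2.89 and 1.77 in KIKO, against 6.49% of genes above in the same way and 5.21% below. Cd74 over H2-Ab1 was 0.867 and 0.694 in WT and 1.99, 3.22 and 1.18 in KIKO, against 22.5% above and 1.09% below. The intervals of WT replicate 1 and KIKO replicate 3 overlapped here too. They were 0.96 to 1.79 and 1.24 to 2.54 over H2-Eb1, and 0.65 to 1.15 and 0.86 to 1.63 over H2-Ab1. In WT replicate 2 the interval was 0.68 to 1.25 over H2-Eb1 and 0.52 to 0.92 over H2-Ab1. Over H2-Eb1 the intervals of KIKO replicates 1 and 3 overlapped both WT libraries. Over H2-Ab1 that of KIKO replicate 3 overlapped both. Those of KIKO replicate 2 lay above both WT libraries for both ratios. The ratios H2-K1 to B2m and those among H2-Aa, H2-Ab1 and H2-Eb1 overlapped between the groups. These ratios share numerators and denominators and are not independent of one another, and they were not tested.

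**Figure D3:**
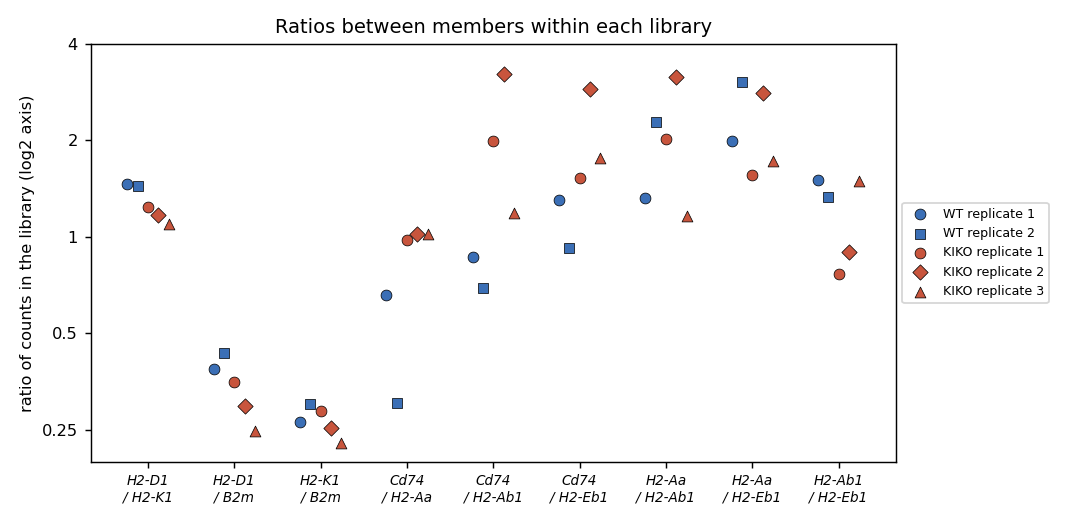
Ratios of counts within each library for the 9 pairs of class I or class II genes, on a log axis, with 1 point for each WT and KIKO library. H2-D1 to H2-K1 and H2-D1 to B2m are lower in the 3 KIKO libraries than in both WT libraries, and Cd74 to H2-Aa, H2-Ab1 and H2-Eb1 higher.

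The rest of the pathway was described from 6 lists of other genes, of which 81 had a row and 43 could be tested. In KIKO 22 were higher and 21 lower, 0 passed the thresholds against 1.2% of all genes, each adjusted p was 1, and the median log2 fold change was 0.01. The groups did not overlap for 8 of the 43, against 16.7% of all genes, with 6 below WT in KIKO (Fcgrt, Tapbp, Psme1, H2-DMa, H2-DMb1 and Creb1) and 2 above (Ifngr1 and Lgals9), named after their values were seen apart from Tapbp and H2-DMa. Other class I heavy chains gave 5 tested genes (2 higher, 3 lower, median −0.58), and peptide supply and loading for class I gave 11 (5 higher, 6 lower, median −0.16). In the latter, Tap2, the partner of Tap1, had 12 and 10 counts in WT and 4, 12 and 4 in KIKO (log2 fold change −0.80, SE 0.89). Tapbp, tapasin, which bridges TAP and the empty heavy chain, was at 113.6 and 102.4 normalized CPM in WT and 59.2, 91.2 and 89.3 in KIKO. Its KIKO values all lay below WT, with a log2 fold change of −0.43 (SE 0.37) that did not pass the test. The immunoproteasome subunit Psmb8 had 22 and 66 counts in WT and 28, 140 and 19 in KIKO, and Psmb9, which overlaps Tap1, had 2 and 13 in WT and 10, 28 and 2 in KIKO, both with the highest count in KIKO replicate 2.

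Other class II chains and loading factors gave 9 tested genes, 5 higher and 4 lower in KIKO, with a median log2 fold change of 0.16. H2-DMa, the alpha chain of the DM exchange factor that takes the Cd74 fragment out of the groove, was at 47.8 and 42.5 normalized CPM in WT and at 26.8, 34.0 and 24.4 in KIKO. All 3 KIKO values lay below both WT values, and the log2 fold change was −0.66 (SE 0.43; edgeR, adjusted p = 1). One of the DM beta chain genes, H2-DMb1, chosen after its values were seen, was at 25.9 and 24.3 normalized CPM in WT and at 10.3, 6.96 and 12.2 in KIKO, the gene with the smallest p of the 6 lists (log2 fold change −1.35, SE 0.59; edgeR, adjusted p = 1). Ctss, cathepsin S, the protease that cuts Cd74, had 1822 and 3255 counts in WT and 1666, 5760 and 1398 in KIKO, with KIKO replicate 2 highest and a log2 fold change of 0.16 (SE 0.62).

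Regulators of MHC transcription gave 14 tested genes, 6 higher and 8 lower in KIKO, with a median log2 fold change of −0.06. The coactivators themselves were too low to test. Nlrc5 had 7 and 6 counts in WT and 5, 0 and 6 in KIKO, and Ciita had 1 and 4 counts in WT and 0 in each KIKO library, beside the limit of 3 counts. Other costimulatory and coinhibitory ligands gave 4 tested genes, all 4 above 0 in KIKO, with a median of 0.50, and none passed the thresholds. KIKO replicate 2 was the highest library for 3 of the 4. Without that library 2 were higher and 2 lower in KIKO, with a median log2 fold change of 0.20. Icosl, the ligand of ICOS, was at 8.97 and 12.1 normalized CPM in WT and at 22.1, 6.96 and 30.4 in KIKO, lowest in KIKO replicate 2 (log2 fold change 0.89, SE 0.76). Cd40 had 4 to 17 counts and failed the filter. None of the 11 T cell receptor genes for these ligands passed the filter on low counts.

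Without KIKO replicate 2, 29 of the 40 pathway genes tested were lower in KIKO and 11 higher, with a median log2 fold change of −0.23 beside −0.01 over all genes. The thresholds were passed by 4 as lower and 1 as higher, named here after their values were seen, against 6.45% of all genes. The lower ones were Lgmn, a lysosomal protease (log2 fold change −1.05), H2-DMb1 (−1.16), Tapbpl, a tapasin relative (−1.36), and Ifngr2, an interferon gamma receptor chain (−1.13). The higher one was Icosl (log2 fold change 1.28), where 2.94% of all genes passed as higher. None of the 5 passed an adjusted p, the smallest being 0.234 for Lgmn in edgeR. The class II loading list had the lowest median of the lists with tested genes, −0.74, with 8 of 9 genes lower.

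**Figure D4:**
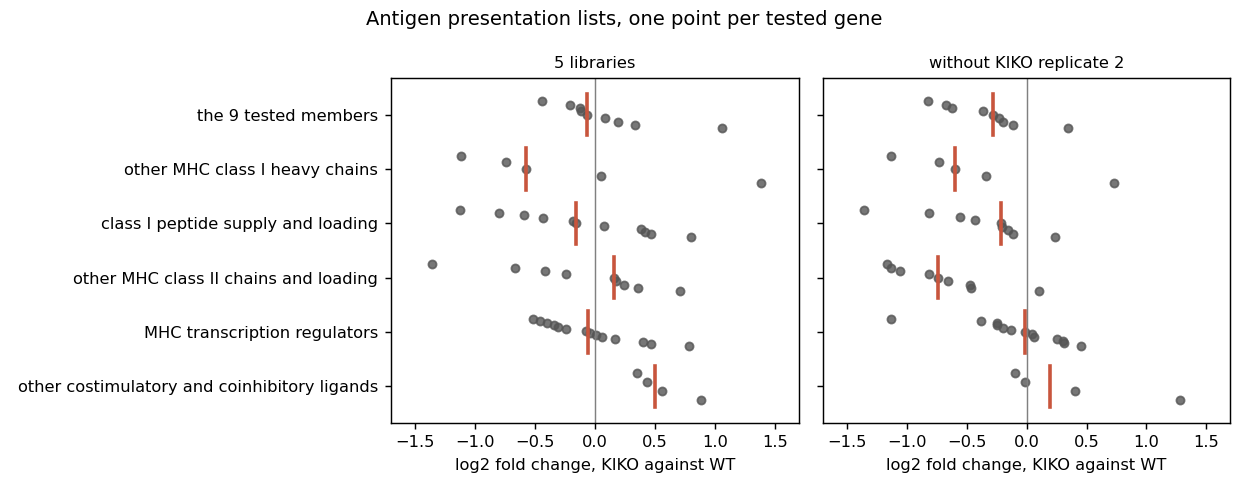
Log2 fold change of KIKO against WT for each tested gene (points) of the 9 members and of 5 pathway lists, with the list medians as bars, with all 5 libraries (left) and without KIKO replicate 2 (right). The list medians lie between −0.58 and 0.50 with all libraries, and the class II loading genes have a median of 0.16 with all libraries and −0.74 without KIKO replicate 2.

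Markers of other cells that carry these molecules were set beside the members. Summed levels of 6 border-associated macrophage markers were 191.3 and 236.6 normalized CPM in WT and 173.5 to 340.8 in KIKO, with the top value in KIKO replicate 2. Of 8 dendritic cell markers, Xcr1 and Clec9a were at 0 in every library, and the sum was 169.9 to 186.3 in WT and 115.1 to 169.2 in KIKO, most of it from Zbtb46. This sum was lower in the 3 KIKO libraries than in both WT libraries, by less than 1 CPM for KIKO replicate 2. The 3 markers of the list that passed the filter on low counts, Zbtb46, Clec10a and Itgax, each had this order too. Their median log2 fold change was −0.94, and 0 passed the thresholds. Flt3 of the same list, which failed the filter, was at 0 and 4.55 normalized CPM in WT and at 6.31, 16.2 and 7.10 in KIKO, the opposite order. Cd209a and Ccr7 also failed the filter, and their groups overlapped. H2-Ab1, H2-DMa and H2-DMb1, the last chosen after its values were seen, had the order of the sum, as did 8.51% of all genes tested. Mog, Folr1 and Aqp1, markers of oligodendrocytes and choroid plexus epithelium picked after their values were seen, had it too. The part of dendritic cells in the class II values was not tested. The B cell genes Ms4a1 and Cd79a were at 0 in every library, while the list's sum of 48.7 to 127.5 came almost wholly from Ighm, again highest in KIKO replicate 2. Cd3e, Cd3d and Cd8a of the T cell list were at 0 in every library, and 4 of its 6 genes had at most 3 counts in each. Markers of monocytes and neutrophils summed to 16.9 and 37.2 normalized CPM in WT and 32.5 to 102.5 in KIKO. Most of this sum came from S100a8 and S100a9 in each library. Ly6c2 and Plac8 were at 0 in every library, and Ccr2 had at most 7 counts.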

How the data were processed

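RNA of 5 mouse cerebellar libraries (2 WT, 3 KIKO) was analysed. After trimming with Trimmomatic and alignment with HISAT2 against mm10, the authors deposited whole-number read counts per gene from featureCounts. The annotation, strand setting and handling of multiple matches are not given in the sources used here. The authors also deposited log2 values, which equal the log2 of the count over a size factor plus 1. Columns were matched to samples by name, and 2 further columns of per-sample values, which match no sample, were not used. Genes were named from GENCODE annotation on GRCm38 (mm10).

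Genes were kept by filterByExpr (minimum count 10, minimum total 15), which left 10889 genes, and compared in R 4.3.3 with edgeR 4.0.16 (TMM, glmQLFit, glmQLFTest, two-sided, Benjamini-Hochberg adjustment over all genes). The common biological coefficient of variation was 0.468. DESeq2 1.42.0 and limma 3.58.1 served as alternatives. The members and gene lists were chosen with earlier results of these data known. Pathway genes named were a set list whatever their values, plus up to 5 of each list past the thresholds, with all libraries or without KIKO replicate 2. Others were named, after their values were seen, because their groups did not overlap. A few other values are left unreported.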

Additional observations from a re-analysis of the deposited data

How the results depend on the processing

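Over the 135 values of the 9 tested members under 15 alternatives, 111 kept their direction and their side of the thresholds, 4 passed the thresholds in the same direction (Cd74 in 3 and H2-Aa in 1) and 20 changed direction. The 131 genes past the thresholds became 47 with microglia marker scaling, 383 with all genes of at least 1 count, 211 with the likelihood ratio test, 519 with sample quality weights and 271 with the replicate number as a block, and ranged from 56 (without WT replicate 1) to 669 (without KIKO replicate 2) when a library was left out. At an adjusted p under 0.05 the count of 0 became 1 with all genes of at least 1 count and ranged from 0 to 5 when a library was left out, with 5 without KIKO replicate 2. The cause was not tested. Log2 fold changes turned below 0 for H2-K1 −0.10 and H2-Eb1 −0.11 with microglia marker scaling, and H2-K1 −0.30, B2m −0.17 and H2-Eb1 −0.15 with quality weights. When a library was left out, the log2 fold change ranged from −0.67 to 0.17 for H2-D1, −0.37 to 0.45 for H2-K1, −0.23 to 0.55 for B2m, −0.20 to 0.0554 for Tap1, −0.82 to 0.17 for H2-Aa, −0.62 to −0.27 for H2-Ab1, −0.19 to 0.30 for H2-Eb1 and −0.52 to 0.18 for Cd86. Leaving out a WT library leaves 1, which is assumed to vary like the KIKO libraries. Cd74 ranged from 0.34 to 1.36 and passed the thresholds with all genes of at least 1 count, with the replicate block and without KIKO replicate 3, with no adjusted p under 0.834 in any alternative.

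The replicate numbers of WT and KIKO are shared for 2 pairs only, whose deviations from the group means correlated at 0.18 and 0.239, as did those of WT replicate 1 and KIKO replicate 3, which share no number, at 0.218. By construction, the correlations of a KIKO library with the 2 WT libraries are equal and opposite, so the numbers are not shown to pair the samples. With the replicate block H2-D1, H2-Aa and Cd86 turned above 0, H2-D1 at 0.0885, H2-Aa at 0.0585 and Cd86 at 0.0906 on the log2 scale. Depth limits Cd80 (0 to 19 counts a library), Nlrc5 (0 to 7), Ciita (0 to 4) and the T cell genes.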
